A study of Mus musculus with 6 samples.

Results

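The insulin-like growth factor (IGF) axis was followed through the mouse retina at postnatal day 17 by 9 genes, Igf1, Igf2, Igf1r, Igf2r, Igfbp2, Igfbp3, Igfbp4, Igfbp5 and Igfbp7, which were taken by their symbol from the 31053 genes of the expression matrices. Oxygen-induced retinopathy (OIR) mice had been kept in 75% oxygen from day 7 to day 12 and in room air for the 5 days that followed, whereas control (Ctrl) mice stayed in room air throughout. Each group held 3 libraries of dissociated retina, and each library pooled the retinas of 2 mice; no genotype, strain or sex is given in the labels of these libraries. Unique molecular identifiers (UMIs), which count captured RNA molecules, were summed for each library and cell type, and levels are given as CPM, the gene's UMIs in each 1000000 UMIs of that cell type in that library.

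IGF1 and IGF2 are secreted growth factors. Both signal through the receptor tyrosine kinase encoded by Igf1r, while the receptor encoded by Igf2r takes up IGF2 and delivers it to lysosomes. In tissue fluid the ligands are held by binding proteins, of which Igfbp2, Igfbp3, Igfbp4 and Igfbp5 encode high-affinity carriers and Igfbp7 encodes a related secreted protein that binds IGFs weakly. IGF1 is known for its part in retinal vessel growth and in retinopathy of prematurity, the disease that OIR models.

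The samples are labelled as retinal endothelial cells of adult mice, but they held whole retina of 17-day-old pups. Of 38569 cells kept, 26053 were rod-like, 3617 Mueller-like, 3472 cone bipolar-like, 2060 rod bipolar-like, 1836 cone-like, 618 microglia-like, 314 amacrine-like, 243 retinal pigment epithelium (RPE)-like, 198 vascular endothelial (VEC)-like, 84 pericyte or vascular smooth muscle (VSMC)-like and 58 astrocyte-like, each named by its markers, and 16 cells stayed unnamed. Libraries held between 15788524 and 42606878 UMIs, and the replicate 1 libraries of both groups were the deepest and had the smallest shares of rod-like cells. By Xist and Y-linked RNA, Ctrl replicates 2 and 3 came from female mice and the other 4 libraries from male mice. Sex was thus partly confounded with group, since Ctrl replicate 1 was the only male Ctrl library and no OIR library was female. Any pair of libraries shared between 9 and 34 of their cell barcodes. In OIR replicate 3, the 4 VEC-like, 4 VSMC-like and 4 astrocyte-like cells carried fibroblast markers at 10919, 65158 and 17842 CPM, against 941, 1493 and 2701 CPM of the markers they were named by. In the other libraries of these types fibroblast markers were at most 0.89, 1373 and 463 CPM. Levels in these 3 types are therefore given also without that library.

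Igfbp2 and Igfbp5 are neighbours on chromosome 1. In the GRCm38 annotation Igfbp2 lies on the plus strand at chr1:72824503-72852474 and Igfbp5 on the minus strand at chr1:72857932-72874884. Their ends are 5457 bases apart with 0 protein-coding genes between them. As these were the genes that rose in OIR, the 300 bases from 250 before to 50 after a RefSeq start (GRCm38.p6) are shown for each, 5′ to 3′ on the gene's own strand, for chr1:72824230-72824529 (the first of the Igfbp2 starts listed) and chr1:72874816-72875115 (Igfbp5). Capitals mark ACGTG on either strand, a form of the core of hypoxia response elements. Where the match on each strand overlaps the other they form CACGTG.
Igfbp2: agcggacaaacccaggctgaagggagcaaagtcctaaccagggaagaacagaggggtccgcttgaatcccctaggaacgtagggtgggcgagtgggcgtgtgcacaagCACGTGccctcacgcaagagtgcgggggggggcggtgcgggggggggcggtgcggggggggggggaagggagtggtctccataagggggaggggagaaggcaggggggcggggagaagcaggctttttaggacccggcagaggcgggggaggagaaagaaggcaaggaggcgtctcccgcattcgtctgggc
Igfbp5: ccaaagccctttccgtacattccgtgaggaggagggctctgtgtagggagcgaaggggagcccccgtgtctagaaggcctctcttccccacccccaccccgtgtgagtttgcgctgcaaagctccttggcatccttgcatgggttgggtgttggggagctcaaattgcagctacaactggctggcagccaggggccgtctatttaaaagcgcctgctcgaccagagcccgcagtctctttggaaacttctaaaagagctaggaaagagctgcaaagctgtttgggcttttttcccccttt
The Igfbp2 window shown held CACGTG with its matches 142 and 141 bases before the start, and the Igfbp5 window held no match. The other Igfbp2 window listed, chr1:72825137-72825436, held no match. Of all 32851 RefSeq promoter windows of this length, 19.62% held ACGTG on either strand, and of the 13 windows of the 9 IGF genes 4 did, 1 each of Igfbp2, Igfbp7, Igf2 and Igf2r.

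Each member had its own distribution over the cell types. Igf1 lay in bipolar cells, with 57.8% of its 4553 UMIs in cone bipolar-like and 34.7% in rod bipolar-like cells, against 3.65% in microglia-like cells. Igf1r, with 23972 UMIs, was found in all 11 named types. Among the binding proteins, Igfbp3 had 92.6% of its 1841 UMIs in VEC-like cells. The next highest Igfbp3 level was in astrocyte-like cells, at 106 CPM (108 without OIR replicate 3), from 49 UMIs in 17 of 58 cells. Igfbp7 was vascular, with 38.5% of 18926 UMIs in VEC-like and 34.7% in VSMC-like cells. Igfbp4 was mainly glial, with 66.4% of 5212 UMIs in Mueller-like cells. Igfbp2 was glial too, with 55.3% of 3545 UMIs in Mueller-like cells and 31.3% in the 58 astrocyte-like cells. Igfbp5 was spread over Mueller-like (34.3% of 4162 UMIs), cone bipolar-like (19.8%), astrocyte-like (18.0%) and rod bipolar-like cells (16.1%). Averaged over the 6 libraries, Igf1 was at 136 CPM in cone bipolar-like, 109 in rod bipolar-like and 62.3 CPM in microglia-like cells, with overlapping ranges of neighbours. Within libraries, cone bipolar-like cells were above rod bipolar-like cells in 6 of 6. Rod bipolar-like cells were above microglia-like cells in 5 of 6. In VSMC-like cells the Igf1 mean of 47.5 CPM rested on 9 UMIs in 1 cell of OIR replicate 3, without which it was 5.29 CPM. Igfbp5 was at 1823 CPM in astrocyte-like cells (1845 without OIR replicate 3), 279 in RPE-like, 52.4 in Mueller-like, 52.1 in rod bipolar-like and 43.5 CPM in cone bipolar-like cells. The highest astrocyte-like value, 5134 CPM in Ctrl replicate 3, came from 1 cell, and the median of the 6 libraries was 1244 CPM. The libraries of RPE-like cells lay below those of astrocyte-like and above those of Mueller-like cells without overlap, and the last 3 types overlapped. Its mean in VSMC-like cells was 545 CPM with and 27.5 CPM without OIR replicate 3. Igfbp2 was at 1401 CPM in astrocyte-like cells (1244 without OIR replicate 3), above all libraries of the next type, RPE-like cells (105 CPM), which overlapped with Mueller-like cells (77.7 CPM). Igfbp4 was at 346 CPM in astrocyte-like, 285 in VSMC-like, 254 in VEC-like and 143 CPM in Mueller-like cells, all with overlap, and without OIR replicate 3 the first 3 were at 374, 182 and 230 CPM. The shares of UMIs given above follow the number and depth of the cells of each type as well as their level. Ctrl replicate 1 held 147 of the 198 VEC-like and 63 of the 84 VSMC-like cells, so the vascular shares rest mostly on that library.

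**Figure D1:**
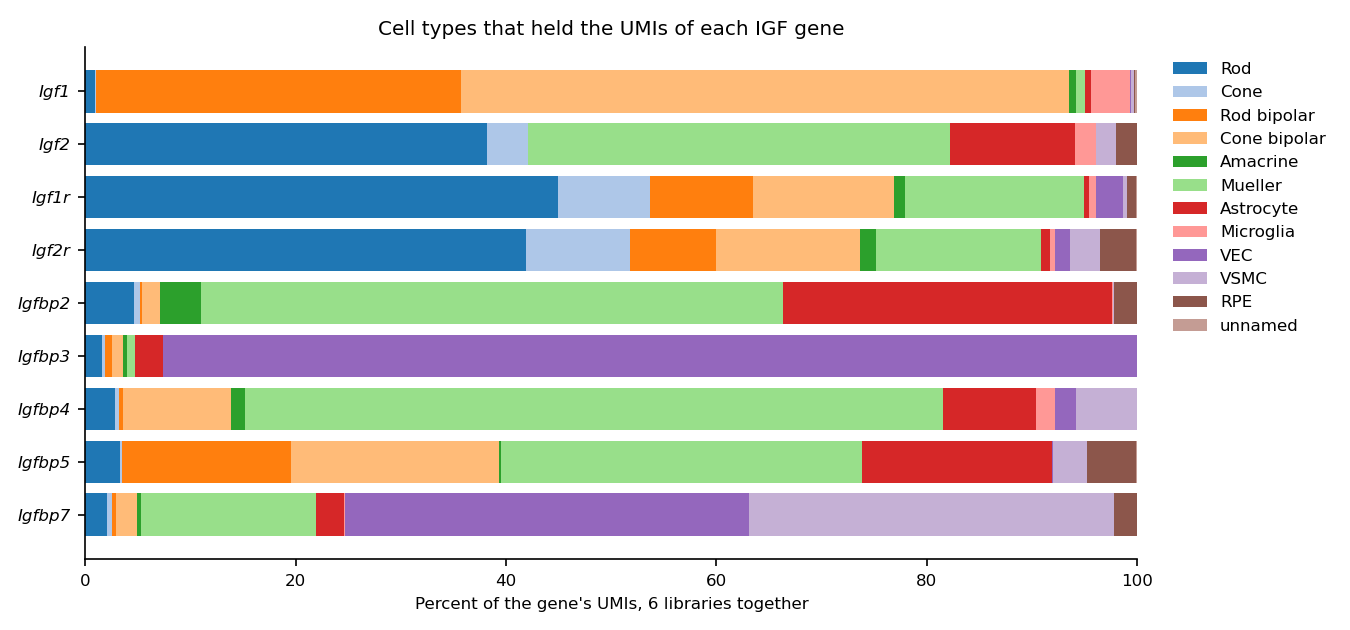
Percent of each IGF gene's UMIs, all 6 libraries together, that lay in each marker-named cell type (colours); bars run from 0 to 100%. Igf1 sat in the bipolar types, Igfbp3 in VEC-like cells, and Igfbp2 and Igfbp4 mainly in Mueller-like cells.

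Between OIR and Ctrl, 9 cell types were tested, which made 81 gene and cell type pairs. Of these, 39 had enough counts to pass the edgeR filter on low counts, and 4 were called. A call needed a p under 0.05 after Benjamini-Hochberg adjustment over all genes of the cell type, with a log2 fold change of 0.25 or more in either direction. All 4 rose in OIR: Igfbp5 in rod bipolar-like, cone bipolar-like and Mueller-like cells, and Igfbp2 in Mueller-like cells. In edgeR 0 pairs were called lower, 1 pair was lower at an unadjusted p under 0.05, and DESeq2 also called 0 lower. A pair that passed the filter through the group in which it is high had to differ, so the 39 are no fair sample of the 81. Over all genes tested, the same rule called 2.45% in rod bipolar-like cells (1.27% as higher in OIR), 0.856% in cone bipolar-like cells (0.506% as higher), 2.74% in Mueller-like cells (1.65% as higher), 2.15% in rod-like cells (1.32% as higher), 1.27% in cone-like, 0.495% in microglia-like, 0.406% in VEC-like, 0.056% in RPE-like and 0.0267% in amacrine-like cells. P-values rest on the spread between 3 pools of mice per group.

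**Figure D2:**
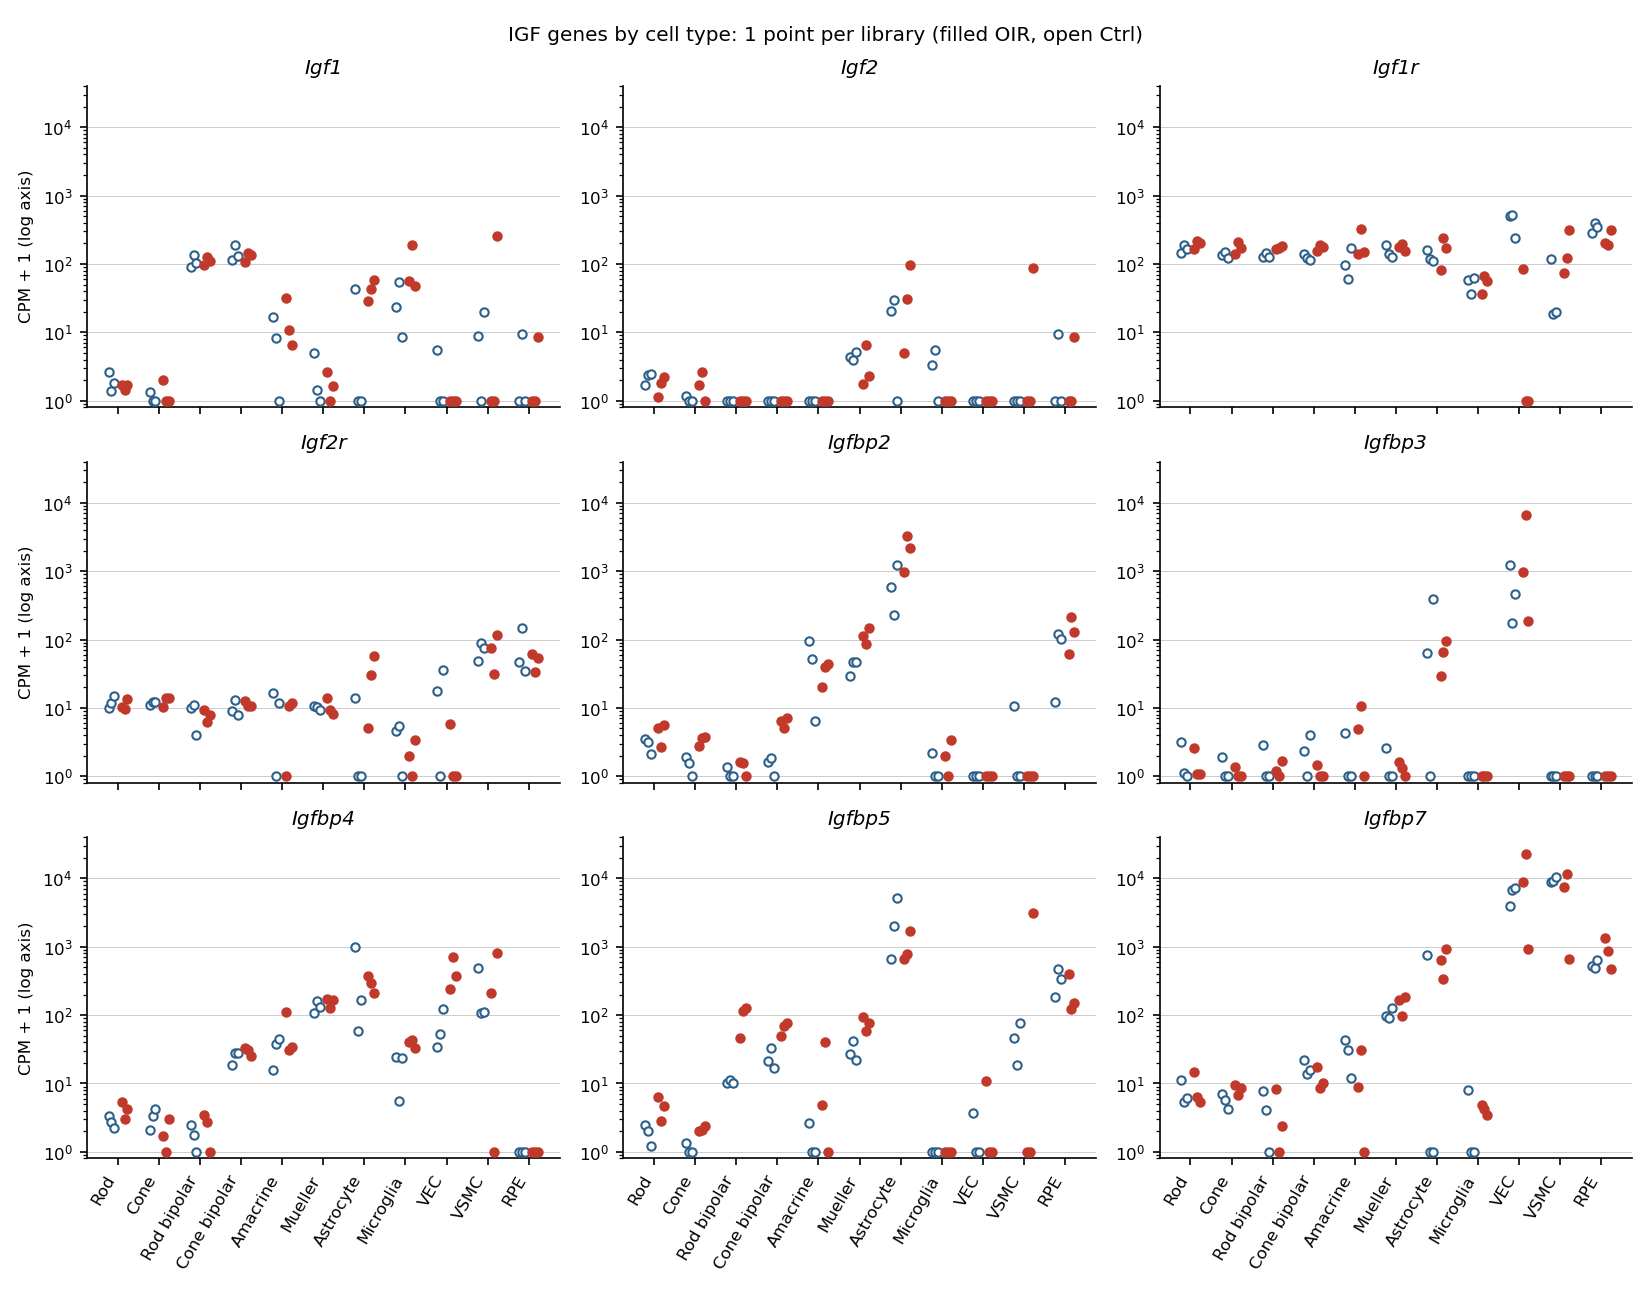
CPM plus 1 on a log axis for each of the 9 genes in each of the 11 named cell types, 1 point per library (filled OIR, open Ctrl). Igf1r was found at like levels in most types, whereas Igf1, Igfbp2, Igfbp3 and Igfbp5 differed by orders of magnitude between types.

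**Figure D3:**
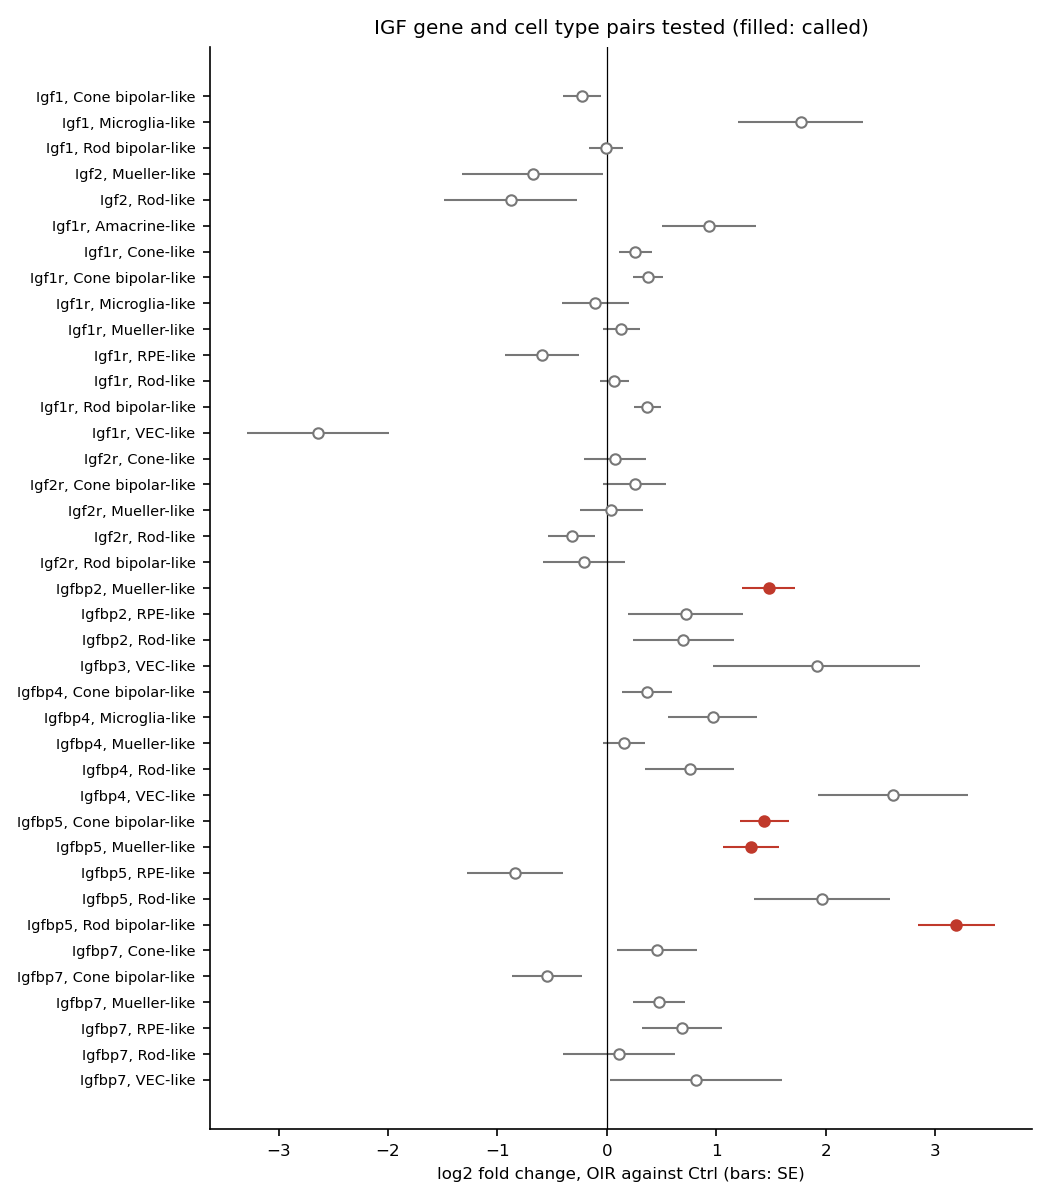
Log2 fold change of OIR against Ctrl with its SE from edgeR for the 39 pairs tested; filled points were called. The 4 called pairs are all to the right of 0, and the widest bars belong to VEC-like cells.

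Among the ligands, Igf1 was carried mostly by bipolar cells and did not differ there between the groups beyond the spread of the libraries. In rod bipolar-like cells Igf1 was at 94.1, 123 and 111 CPM in OIR and at 88.3, 134 and 101 CPM in Ctrl, so the groups overlapped (log2 fold change -0.01, SE 0.16, edgeR adjusted p = 0.993). In cone bipolar-like cells it was at 107, 141 and 133 CPM in OIR and at 114, 189 and 132 CPM in Ctrl, again with overlap (log2 fold change -0.23, SE 0.17, adjusted p = 0.665). The cells with an Igf1 UMI were 52.9% ± 5.13 of rod bipolar-like cells in OIR and 48.5% ± 11.9 in Ctrl (SD, n = 3), against 0.152% and 0.200% of rod-like cells, which served as the background of free RNA. Rod-like cells were shallower, with library medians of 1403 to 3091 UMIs against 6411 to 10271 in rod bipolar-like cells, but thinned to 1000 UMIs per cell the share in rod bipolar-like cells was still 8.47% to 14.0%, while in rod-like cells it was at most 0.139%.

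Within the bipolar cells the level of Igf1 varied more between clusters than between the groups. Clusters are described by their leading genes. In the cone bipolar-like cluster led by Igfn1 and Vsx1, Igf1 stood at 323 ± 66.2 CPM in OIR and 342 ± 44.4 in Ctrl. In the cluster led by Slit2 and Irx6 the values were 257 ± 42.9 and 327 ± 139 CPM, and in the cluster led by Cck and Reln 202 ± 32.1 and 266 ± 86.1 CPM. The cluster led by Adarb2 and Cntn5 was intermediate, at 133 ± 22.9 and 122 ± 16.8 CPM. By contrast, Igf1 was low in the cluster led by Kcng4 and Epha7 (20.1 ± 3.62 and 23.5 ± 15.6 CPM) and in the cluster led by Grik1 and Otor (1.89 ± 3.27 and 11.2 ± 13.2 CPM). The OIR and Ctrl libraries overlapped in each of these clusters, and the 9 IGF genes had been left out of the genes used for clustering.

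**Figure D4:**
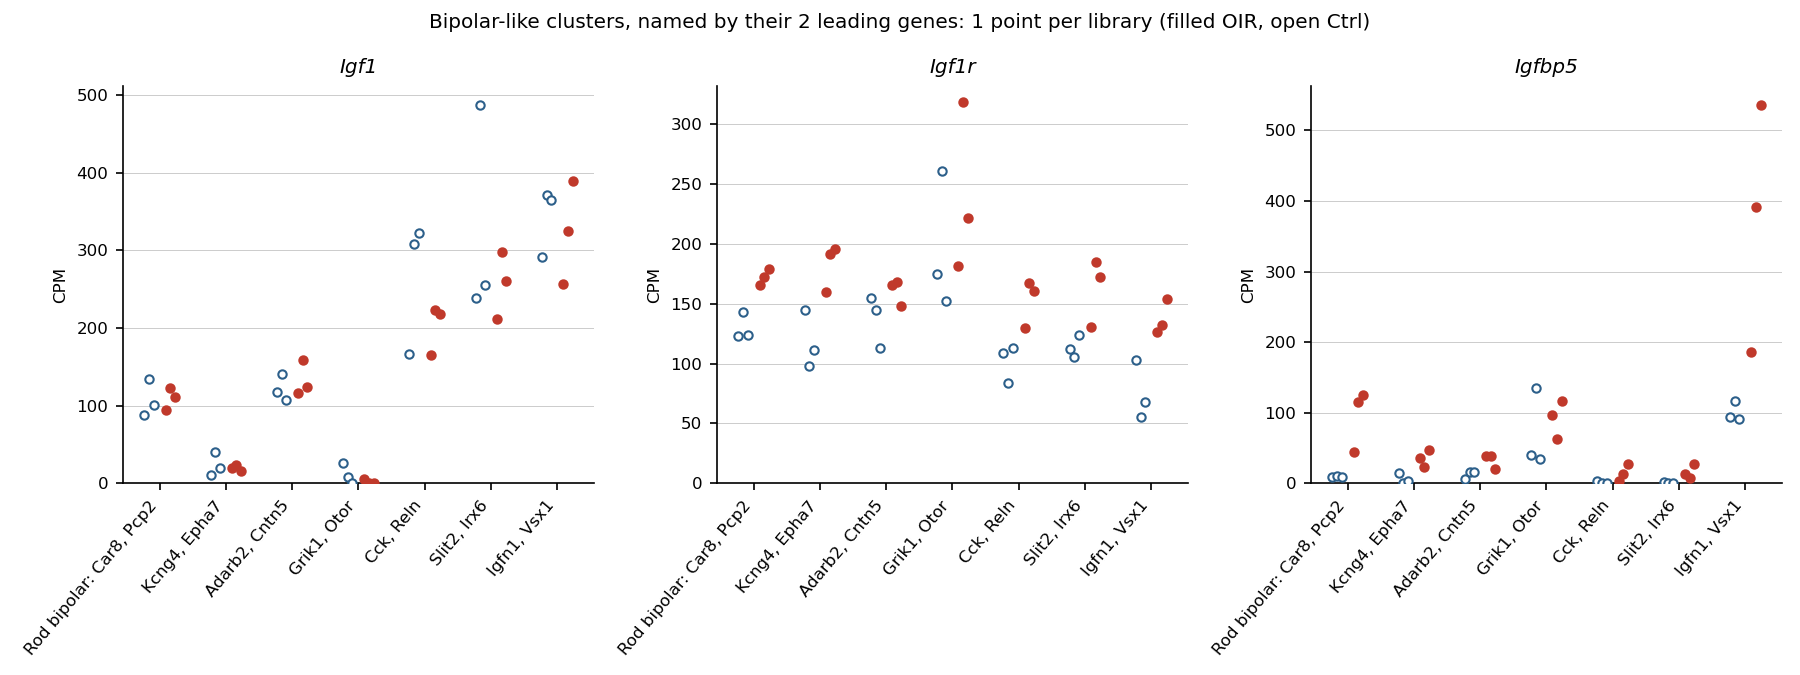
CPM of Igf1, Igf1r and Igfbp5 in the rod bipolar-like cluster and the cone bipolar-like clusters, named by their leading genes, 1 point per library (filled OIR, open Ctrl). Igf1 differed between clusters with overlap of the groups in each, whereas Igfbp5 in OIR lay above Ctrl in every cluster but the one led by Grik1 and Otor. The clusters led by Cck and by Slit2 held only 23 and 20 Igfbp5 UMIs in all.

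Microglia-like cells held the next highest Igf1 level after the bipolar types. It was 55.3, 188 and 46.3 CPM in OIR and 22.4, 53.8 and 7.54 CPM in Ctrl, from 133 and 33 UMIs. The groups overlapped, and the difference was not called (log2 fold change 1.77, SE 0.57, adjusted p = 0.276). In OIR replicate 2, 1 cell held 30 of the 57 Igf1 UMIs. The summed Mueller marker list, which includes Apoe, a gene that microglia also express, was at 37135 to 40253 CPM in OIR microglia-like cells and at 15680 to 16830 CPM in Ctrl, with 12 of 12 markers detected, and its part in the result was not tested. The other ligand, Igf2, had 152 UMIs in all. Its mean over the 6 libraries was highest in astrocyte-like cells, at 29.5 CPM (16.4 without OIR replicate 3), from 18 UMIs in 12 of 58 cells. Igf2 was at 0.769 to 5.57 CPM in Mueller-like cells and at most 1.43 CPM in rod-like cells, with overlap of the groups in both. An Igf2 UMI was held by 0 of 2060 rod bipolar-like and 0 of 3472 cone bipolar-like cells, which allows shares of up to 0.146% and 0.0864%. Its log2 fold change was -0.68 in Mueller-like cells (adjusted p = 0.689) and -0.88 in rod-like cells (adjusted p = 0.491). Igf2 overlaps Igf2os on the other strand and Igf1 overlaps Igf1os, and the sources used here do not state whether the counting used strand, so reads of these partners may not be told apart.

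The signalling receptor gene Igf1r was measured in every cell type. Averaged over the 6 libraries it ranged from 52.0 CPM in microglia-like cells to 286 CPM in RPE-like cells, and neighbours in the order of the cell types overlapped throughout. The library ranges of rod-like (mean 179 ± 26.0 CPM, SD, n = 6), Mueller-like (162 ± 27.4), cone-like (153 ± 30.2), rod bipolar-like (151 ± 24.7) and cone bipolar-like cells (148 ± 29.1) overlapped. Within each library, however, Igf1r was higher in rod-like than in cone-like and cone bipolar-like cells, an order that was not tested. In rod bipolar-like cells Igf1r was at 166, 172 and 179 CPM in OIR and 123, 143 and 124 CPM in Ctrl, so that each OIR library was above each Ctrl library. In cone bipolar-like cells it was at 152, 187 and 174 CPM in OIR and 139, 120 and 115 CPM in Ctrl, likewise without overlap. Neither difference was called (log2 fold change 0.37, SE 0.12, adjusted p = 0.163 and log2 fold change 0.38, SE 0.14, adjusted p = 0.262), and such a separation with OIR higher was met by 11.5% of all genes tested in rod bipolar-like cells and 11.1% in cone bipolar-like cells. Cluster by cluster, the Igf1r groups did not overlap in the bipolar clusters led by Kcng4, Cck, Slit2 and Igfn1 and overlapped in those led by Adarb2 and Grik1. How many of all genes separated so was not counted by cluster. In replicates 2 and 3 alone Igf1r in cone bipolar-like cells was called (log2 fold change 0.56, adjusted p = 0.0402). In Mueller-like cells the Igf1r log2 fold change was 0.13 (adjusted p = 0.777) and in rod-like cells 0.07 (adjusted p = 0.837).

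In VEC-like cells the Igf1r counts came from few cells. There were 17 UMIs in 25 cells, 0 in 2 cells and 0 in 4 cells of the OIR libraries, against 563 UMIs in 147 cells, 30 in 4 cells and 14 in 16 cells of the Ctrl libraries. This gave 82.4 CPM in OIR replicate 1, and in OIR replicates 2 and 3 the 0 counts allow up to 354 and 565 CPM (3 counts each; intervals and limits cover counting error only). The Ctrl libraries were at 499, 521 and 241 CPM. The log2 fold change of -2.64 (SE 0.65) was not called (adjusted p = 0.117), and without Ctrl replicate 3 it was -3.04 and called (adjusted p = 0.0388). Without OIR replicate 3, whose VEC-like cells carried fibroblast markers, it was -2.61 (adjusted p = 0.130). In each of these fits Igf1r passed the filter only through Ctrl, so the call is no support for a fall. In OIR replicate 1, VEC markers were at 8302 CPM, against 12011 to 17500 in Ctrl and 19222 in OIR replicate 2. Mueller markers were at 7390 CPM, against 2622 to 5828 in Ctrl and 3420 in OIR replicate 2. The part of these lists in the result was not tested. Igf2r was at 7.08 to 11.3 CPM on average in rod-like, cone-like, bipolar-like and Mueller-like cells. It was higher in RPE-like cells (32.6 to 144 CPM over the libraries) and in VSMC-like cells (30.5 to 89.1 CPM, and 115 CPM in OIR replicate 3). In the 5 cell types in which Igf2r was tested, edgeR called 0 (adjusted p from 0.479 to 0.970). Igf2r overlaps Airn on the other strand.

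Igfbp5 showed the largest difference of the 9 genes among the called pairs, and it lay in rod bipolar-like cells. The OIR libraries were at 44.6, 115 and 125 CPM, from 213, 199 and 184 UMIs, and the Ctrl libraries at 9.34, 10.1 and 9.11 CPM, from 51, 13 and 9 UMIs. The Ctrl libraries lay close together. Each OIR library was above each of them, a separation that 11.5% of all genes tested in rod bipolar-like cells met. OIR replicate 1 was the lowest of the 3 OIR libraries. The means were 94.7 ± 43.7 and 9.52 ± 0.525 CPM (SD, n = 3), and Igfbp5 rose by a log2 fold change of 3.20 (SE 0.35, adjusted p = 0.000199). The change was seen in many cells: 24.7%, 52.4% and 54.1% of rod bipolar-like cells held an Igfbp5 UMI in the OIR libraries, against 5.12%, 6.10% and 5.66% in Ctrl, and the cell with the most held 9 UMIs. At a fixed depth of 1000 UMIs per cell, which kept 567, 176 and 154 OIR cells and 815, 164 and 157 Ctrl cells, the shares were 3.88%, 9.66% and 9.09% against 0.368%, 0% and 0.637% (0 of 164 cells allows up to 1.83%). Rod-like cells had an Igfbp5 UMI in 0.708% of cells in OIR and 0.199% in Ctrl, or 0.335% and 0.0690% at 1000 UMIs per cell. Markers of astrocytes, the cells with the most Igfbp5, were at most 10.1 CPM in either bipolar type in any library, with 4 of 5 detected in rod bipolar-like cells, and Mueller markers, 12 of 12 detected, were at 322 to 453 CPM in the rod bipolar-like cells of OIR and 192 to 399 CPM in Ctrl. Cone bipolar markers, 13 of 14 detected, were at 81.5, 90.5 and 103 CPM in the rod bipolar-like cells of OIR and 72.3, 49.8 and 51.6 CPM in Ctrl, without overlap, against 2241 to 3100 CPM in cone bipolar-like cells themselves. The part of these lists in the result was not tested.

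In cone bipolar-like cells Igfbp5 rose as well, from a higher Ctrl level. It was at 48.7, 69.3 and 74.5 CPM in OIR and 20.3, 32.4 and 15.9 CPM in Ctrl, again without overlap (log2 fold change 1.44, SE 0.22, adjusted p = 0.00896). Such a separation with OIR higher was met by 11.1% of all genes tested in cone bipolar-like cells. Without OIR replicate 2 the call was lost, as it was after thinning each cell to 1000 UMIs. The cluster led by Igfn1 and Vsx1 was the highest of the bipolar clusters in both groups, at 186, 391 and 536 CPM in OIR and 94.2, 117 and 91.1 CPM in Ctrl. In the cluster led by Kcng4 and Epha7 Igfbp5 was at 36.4, 23.7 and 47.7 CPM in OIR and 15.3, 0 and 2.79 CPM in Ctrl. The cluster led by Grik1 and Otor overlapped, with 96.4, 62.3 and 117 CPM in OIR and 40.5, 134 and 33.9 CPM in Ctrl, and in the remaining 3 cone bipolar-like clusters each OIR library was above each Ctrl library. Of these, the clusters led by Cck and by Slit2 held only 23 and 20 Igfbp5 UMIs in all, with 0 in Ctrl replicates 2 and 3. The share of all genes that separated so was not counted by cluster. All clusters share the same 6 libraries and are no independent repeats, and their differences were not tested.

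Mueller-like cells, the main glia of the retina, were the third site, and here Igfbp5 and Igfbp2 rose together. Igfbp5 was at 92.8, 57.2 and 76.5 CPM in OIR and 25.9, 40.8 and 20.9 CPM in Ctrl (log2 fold change 1.32, SE 0.26, adjusted p = 0.0258). Igfbp2 was at 112, 85.0 and 147 CPM in OIR and 28.4, 46.7 and 46.0 CPM in Ctrl (log2 fold change 1.48, SE 0.24, adjusted p = 0.0127). The groups did not overlap for either gene, a separation with OIR higher that 14% of all genes tested in Mueller-like cells met. Cells with an Igfbp2 UMI made up 33.9% ± 7.16 of Mueller-like cells in OIR and 18.1% ± 6.17 in Ctrl, against 0.798% and 0.401% of rod-like cells. At 1000 UMIs per cell the Igfbp2 shares were 8.92% ± 3.37 and 3.78% ± 1.71, against 0.217% and 0.128% of rod-like cells. For Igfbp5 the shares were 22.6% ± 7.85 and 13.8% ± 5.84, or 6.50% ± 1.04 and 2.97% ± 0.532 at 1000 UMIs per cell. Both genes were lost from the calls when OIR replicate 1 or OIR replicate 3 was left out, and Igfbp5 also without Ctrl replicate 3, with adjusted p of at most 0.0582 for Igfbp2 and 0.106 for Igfbp5 over all alternatives.

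**Figure D5:**
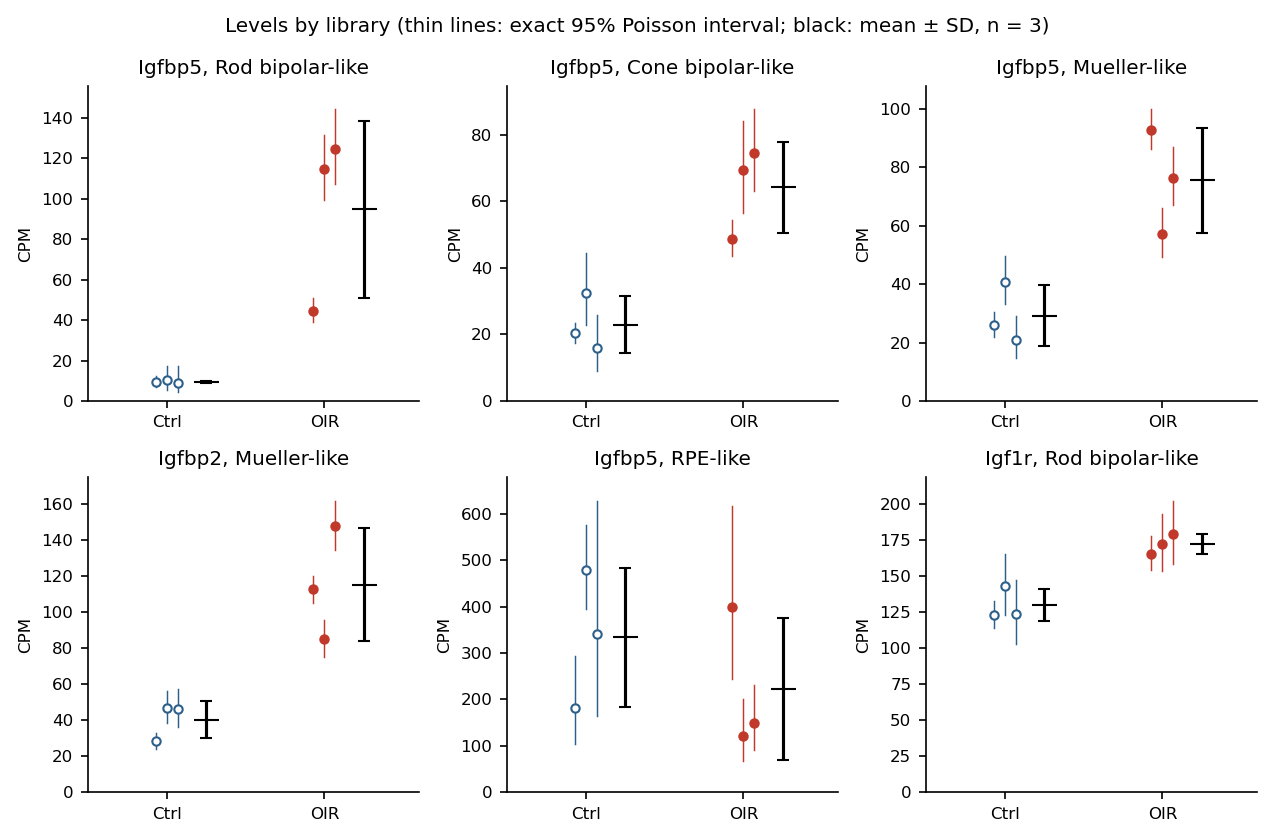
CPM by library with its exact 95% Poisson interval (thin lines) and the mean ± SD of 3 libraries (black) for the 4 called pairs and for 2 pairs that were not called, Igfbp5 in RPE-like and Igf1r in rod bipolar-like cells. OIR lay above Ctrl without overlap in each called pair and in Igf1r, and overlapped it in RPE-like cells.

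The Mueller-like cells fell into a cluster of 2194 cells with high UMI counts and a cluster of 1423 cells with low UMI counts, and both genes behaved alike in each. In the first, Igfbp2 was at 122 ± 34.2 CPM in OIR and 41.4 ± 10.9 in Ctrl, and Igfbp5 at 78.6 ± 23.1 and 30.4 ± 10.6 CPM. In the second, Igfbp2 was at 80.5 ± 28.1 and 32.8 ± 11.5 CPM, and Igfbp5 at 56.9 ± 12.9 and 20.4 ± 11.6 CPM. No library of OIR overlapped with Ctrl in these 4 comparisons, and the share of all genes separated so was not counted within each cluster. Astrocyte-like cells held the highest mean levels of both genes over the 6 libraries (1401 CPM of Igfbp2 and 1823 CPM of Igfbp5). The summed astrocyte markers, 5 of 5 detected, were at 155, 147 and 122 CPM in OIR Mueller-like cells and 132, 111 and 95.7 CPM in Ctrl. RPE markers, 9 of 10 detected, were at 556, 666 and 623 CPM against 470, 446 and 465 CPM, and VEC markers, 9 of 9 detected, at 1059, 1301 and 1119 CPM against 1029, 1032 and 907 CPM, both without overlap. RPE-like cells also held more of both genes on average than Mueller-like cells, while VEC-like cells held 0 UMIs of Igfbp2. The part of these lists in the result was not tested. In the astrocyte-like cells themselves, which numbered 1 to 23 per library and were not tested, Igfbp5 was at 667, 776 and 1712 CPM in OIR and 655, 1994 and 5134 CPM in Ctrl, with overlap. Igfbp2 was at 964, 3233 and 2187 CPM in OIR and 577, 231 and 1214 CPM in Ctrl, also with overlap. The last OIR value of each gene comes from the fibroblast-marked cells of OIR replicate 3, and the groups overlapped without it too.

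Igfbp5 in rod-like cells, Igfbp2 in cone bipolar-like and rod-like cells, and both genes in cone-like cells were low. Igfbp5 in rod-like cells was at 5.34, 1.87 and 3.68 CPM in OIR and 1.44, 1.01 and 0.205 CPM in Ctrl, from 117 and 20 UMIs. The groups did not overlap, as for 23.2% of all genes tested in rod-like cells. The difference was not called (log2 fold change 1.97, SE 0.62, adjusted p = 0.140), whereas with the replicate block it was (log2 fold change 1.90, adjusted p = 0.0493). It was also called in replicates 2 and 3 alone. Of the 137 rod-like UMIs, 73 lay in a cluster of 1100 cells led by Fabp5 and Nin, the rod-like cluster in which Mueller markers were most often present. Summed Mueller markers in all rod-like cells were at 774 to 885 CPM in OIR and 413 to 896 CPM in Ctrl. Astrocyte markers, 5 of 5 detected, were at 10.1, 3.83 and 3.38 CPM against 2.69, 2.31 and 2.25 CPM, and RPE markers, 10 of 10 detected, at 36.3, 70.0 and 66.6 CPM against 29.3, 34.0 and 30.1 CPM, both without overlap. The part of these lists in the result was not tested. Igfbp2 in cone bipolar-like cells did not pass the filter, with 37, 6 and 12 UMIs in OIR and 6, 1 and 0 UMIs in Ctrl, which is 5.51, 4.08 and 6.08 CPM against 0.630, 0.852 and 0 CPM. It passed the filter and was called when Ctrl replicate 2 (adjusted p = 0.0490) or Ctrl replicate 3 (adjusted p = 0.0474) was left out. In both fits it passed only through OIR replicates 1 and 3, so these calls are no support for a rise. In rod-like cells Igfbp2 was at 4.09, 1.69 and 4.58 CPM in OIR and 2.51, 2.21 and 1.13 CPM in Ctrl, with overlap (log2 fold change 0.70, adjusted p = 0.472). In cone-like cells Igfbp5 averaged 1.16 CPM in OIR and 0.120 CPM in Ctrl, from 7 and 2 UMIs. Igfbp2 averaged 2.39 and 0.497 CPM there, from 14 and 6 UMIs. The groups did not overlap for either gene, but neither passed the filter. The share of all genes separated so in cone-like cells was not counted.

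RPE-like cells differed from this pattern. Igfbp5 was at 399, 122 and 149 CPM in OIR and 181, 479 and 341 CPM in Ctrl, with overlap (log2 fold change -0.84, SE 0.44, adjusted p = 0.945). The difference of the OIR effect between 2 cell types was tested with the library as a block in 11 comparisons, covering each called gene against each other type in which it passed the filter. The calls came from the same counts, a choice that favours large differences. P-values were adjusted over the genes of each fit and not over the 11 comparisons. The effect on Igfbp5 in rod bipolar-like cells exceeded that in cone bipolar-like cells by 1.58 on the log2 scale, coded as cone bipolar-like minus rod bipolar-like (-1.58, SE 0.27, adjusted p = 0.000706). It was above that in RPE-like cells for rod bipolar-like (difference 3.85, SE 0.51, adjusted p = 2.81e-10), cone bipolar-like (2.08, SE 0.46, adjusted p = 0.0101) and Mueller-like cells (1.94, SE 0.46, adjusted p = 0.0262). Without the filter on low counts the last of these was lost (adjusted p = 0.0823). The Igfbp5 effect was not distinguished from that in rod-like cells for rod bipolar-like (1.33, SE 0.89, adjusted p = 0.603), cone bipolar-like (-0.49, SE 0.57, adjusted p = 0.838) or Mueller-like cells (-0.70, SE 0.42, adjusted p = 0.536). The difference between Mueller-like and rod bipolar-like cells was -1.73 (SE 0.48) and missed the threshold (adjusted p = 0.0876) but passed it without the filter (adjusted p = 7.37e-08), and that between cone bipolar-like and Mueller-like cells was 0.04 (SE 0.27, adjusted p = 0.986). For Igfbp2, Mueller-like cells were not distinguished from rod-like (0.71, SE 0.38, adjusted p = 0.470) or RPE-like cells (0.51, SE 0.55, adjusted p = 1).

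The vascular binding proteins rested on the same few VEC-like cells. Igfbp3 was at 975, 6722 and 188 CPM in OIR, from 201, 57 and 1 UMIs, and at 1249, 174 and 464 CPM in Ctrl, with overlap (log2 fold change 1.92, SE 0.95, adjusted p = 0.616). The 57 UMIs of OIR replicate 2 came from 1 cell, and without that library the log2 fold change of Igfbp3 was 0.08. Igfbp4 in VEC-like cells was at 238, 708 and 377 CPM in OIR, from 49, 6 and 2 UMIs, and 32.8, 52.1 and 120 CPM in Ctrl, from 37, 3 and 7 UMIs. The groups did not overlap, but Igfbp4 passed the filter on low counts there only through its OIR libraries, which fixed that separation. The share of all genes separated so in VEC-like cells was not counted. The difference was not called (log2 fold change 2.62, SE 0.68, adjusted p = 0.144). Without Ctrl replicate 3 it was called (adjusted p = 0.0271). Igfbp4 again passed the filter only through OIR there, so that call is no support for a rise. Igfbp7, which in VSMC-like cells reached 8724, 9271 and 10573 CPM in Ctrl, was at 8806, 22759 and 941 CPM in OIR VEC-like cells and 3941, 6841 and 7286 CPM in Ctrl (log2 fold change 0.82, SE 0.79, adjusted p = 0.925). Without OIR replicate 2 it turned to -0.23, and without OIR replicate 3 it was 1.28. VSMC-like cells numbered 2 to 63 per library and were not tested. Their Igfbp7 level in OIR was 7454, 11636 and 660 CPM, and 109 of their 137 Igfbp5 UMIs came from OIR replicate 3, the library with the lowest Igfbp7 level, whose VSMC-like cells carried fibroblast markers.

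For Igfbp4 and Igfbp7, no difference was called in glia. In Mueller-like cells Igfbp4 was at 171, 126 and 164 CPM in OIR and 105, 163 and 132 CPM in Ctrl, with overlap (log2 fold change 0.15, SE 0.19, adjusted p = 0.773). Igfbp7 was at 167, 96.2 and 185 CPM in OIR and 95.8, 89.2 and 126 CPM in Ctrl, with overlap too (log2 fold change 0.48, SE 0.24, adjusted p = 0.375). Igfbp7 overlaps Polr2b and Gm34648 on the other strand. In microglia-like cells Igfbp4 was at 39.8, 42.9 and 31.7 CPM in OIR and 23.6, 4.49 and 22.6 CPM in Ctrl, without overlap and not called (log2 fold change 0.97, SE 0.41, adjusted p = 0.469), a separation met by 7.19% of all genes tested there. Igfbp4 passed the filter in these cells only through its OIR libraries, which fixed the separation. An Igfbp5 UMI was held by 0 of 618 microglia-like cells, which allows a share of up to 0.485%, and an Igfbp4 UMI by 0 of 243 RPE-like cells, which allows up to 1.23%.

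Of 45 further genes of the pathway (carriers, proteases and inputs; receptor signalling; IGF2 RNA handling), 166 gene and cell type pairs were tested and 3 were called, all higher in OIR. In edgeR 0 were called lower, with 6 lower at an unadjusted p under 0.05, and DESeq2 also called 0 lower. By cell type 1 of 34 pathway genes tested was called higher in Mueller-like cells, 1 of 26 in cone bipolar-like and 1 of 28 in rod-like cells, against 1.65%, 0.506% and 1.32% of all genes, and 1 call each is no result about the list. Stc2, which encodes stanniocalcin-2, an inhibitor of the protease PAPP-A that cleaves IGF carriers, was at 27.3, 24.4 and 20.6 CPM in OIR Mueller-like cells and 10.2, 10.8 and 9.57 CPM in Ctrl, and rose (log2 fold change 1.19, SE 0.20, adjusted p = 0.0145). In cone bipolar-like cells Stc2 was at 15.2, 18.3 and 7.10 CPM in OIR and 3.89, 3.41 and 1.99 CPM in Ctrl, and was called higher too (log2 fold change 1.88, SE 0.39, adjusted p = 0.0368). There it passed the filter on low counts only through its OIR libraries, so the groups had to differ. Neither pair of groups overlapped. Such a separation with OIR higher was met by 14% of all genes tested in Mueller-like and 11.1% in cone bipolar-like cells. Htra1, which encodes a secreted serine protease that can cleave IGF binding proteins, was at 140, 129 and 130 CPM in OIR rod-like cells and 80.2, 72.2 and 62.7 CPM in Ctrl, and rose (log2 fold change 0.74, SE 0.12, adjusted p = 0.0251). In Mueller-like cells the Htra1 log2 fold change was -0.93 and not called (adjusted p = 0.291). It was 0.805 in cone-like and 0.833 in rod bipolar-like cells, where Htra1 was not called either. All 3 calls were lost without Ctrl replicate 2 and without Ctrl replicate 3, both Stc2 calls without OIR replicate 1, Stc2 in cone bipolar-like cells and Htra1 without OIR replicate 2, and Htra1 without OIR replicate 3 (adjusted p from 0.0539 to 0.174). With a term for the sex of the mice Htra1 in rod-like cells was at 0.58 (adjusted p = 0.201). Over all genes tested in rod-like cells, that term left 14 called higher and 19 lower, against 154 and 97 without it. Of the 29 receptor signalling genes, 27 were tested in Mueller-like cells and 0 were called in either direction, against 2.74% of all genes, with a median log2 fold change of -0.02 against -0.01 over all 11549 genes. The nearest was Insr, the insulin receptor gene (log2 fold change 0.82, adjusted p = 0.0769), which was called with the replicate block (log2 fold change 0.85, adjusted p = 0.00570), and by DESeq2 (adjusted p = 0.0168).

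Over the 63 sums of library and cell type with at least 20000 UMIs, genes whose levels followed each member closely were found by Spearman's rho on log2(CPM + 1), as a description. The sums share libraries and cell types. For Igfbp5 they included Ltbp3 (0.79) and Vit (0.74), and for Igfbp2 they were Trpm3 (0.87), Spon1 (0.85) and Efna5 (0.81). Igfbp7 was closest to Lamb1, a laminin chain of basement membranes (0.83), Igfbp3 to Clec14a, an endothelial surface protein gene (0.73), and Igfbp4 to Ier5l (0.87). Igf1 was closest to Pacs2 (0.73), Igf1r to Elovl7 (0.63) and Igf2r to Pip5k1b (0.67).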

How the data were processed

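Retinas of 3 OIR and 3 Ctrl pools of 2 mice each were dissociated and sequenced by 10x Genomics 3′ single-cell RNA-seq. The authors deposited filtered matrices of raw UMI counts per gene and cell barcode, with mm10 named in the processing notes. The matrix headers name software version 3.1.0, whereas the study's methods give another version of Cell Ranger and a human reference; the gene identifiers are mouse. The count files held 47631 barcodes.

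Cells with 500 to 5000 genes and at most 20% mitochondrial UMIs were kept. Seurat 5.3.0 integrated the groups by canonical correlation (2000 variable genes less the 6 IGF genes among them, 30 dimensions, 15 principal components, 20 neighbours, Louvain resolution 0.5). A marker was present at 3 times the median cluster and in 10% of cells, and a cluster took the name whose markers were most often present. Doublets were not removed in the main result. Scrublet's automatic threshold marked none in 4 libraries, so removing its highest scores served as an alternative.

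Counts were summed per library and cell type, in types with at least 10 cells in every library and in VEC-like cells. edgeR 4.0.16 (TMM, filterByExpr, quasi-likelihood test, two-sided) compared OIR with Ctrl; DESeq2 1.42.0 was an alternative. The depth was 15788524 to 42606878 UMIs per library before filters on cells. The study's rank-sum test over cells was not used, since cells are not replicates. Tests were tested on simulated data.

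Deviations from the group means of same-numbered libraries correlated by 0.670, 0.298 and 0.507 over all named cells. Within the single cell types that were tested the correlations were lower. They were 0.473, 0.225 and 0.358 in rod-like, 0.306, 0.0840 and 0.156 in rod bipolar-like and 0.228, -0.0189 and 0.249 in Mueller-like cells. The replicate numbers come from the sample titles and were taken as pairs, and the fit with them as a block is given where it changed a call.

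The 9 genes, the pathway list and the markers were chosen with earlier results of these data known. Named were the 9 genes, pathway genes called in a cell type or else with the lowest p, and the 3 genes of like pattern for each of the 9 with at least 200 UMIs. A gene of like pattern to Igfbp5 is not reported here.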

Additional observations from a re-analysis of the deposited data

Results flagged for a closer look

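The OIR effect on Igfbp5 differed between cell types in 4 of the 11 comparisons tested, each by an edgeR interaction term with the library as a block. The comparisons were chosen by calls on the same counts, and p was adjusted within each fit only. The difference in log2 fold change was -1.58 for cone bipolar-like minus rod bipolar-like cells. Against RPE-like cells it was 2.08 for cone bipolar-like, 1.94 for Mueller-like and 3.85 for rod bipolar-like cells, of which that of Mueller-like cells had an adjusted p of 0.0823 when genes of low counts were kept. The RPE-like sums rest on 17 to 75 cells per library. Against rod-like cells the difference was 1.33 for rod bipolar-like (adjusted p = 0.603), -0.49 for cone bipolar-like (adjusted p = 0.838) and -0.70 for Mueller-like cells (adjusted p = 0.536). None of these passed the threshold.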

How the results depend on the processing

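Over 17 alternatives, Igfbp5 in rod bipolar-like cells was called in each of the 16 that gave a value (log2 fold change 2.88 to 3.56); after thinning to 1000 UMIs per cell it did not pass the filter. No called pair changed direction. The IGF pairs called higher numbered 4, and 2 after thinning, and from 2 to 5 when each library in turn was left out (2 without OIR replicate 1 or OIR replicate 3). The IGF pairs called lower went from 0 to between 0 and 1 on leaving out a library (1 without Ctrl replicate 3, Igf1r in VEC-like cells). That pair passed the filter only through Ctrl. With the replicate block, 5 pairs were called higher, Igfbp5 in rod-like cells being added; beside it and Insr, no call the report prints changed. Igfbp5 in Mueller-like cells lost its call in replicates 2 and 3 alone, a set of 4 libraries, and Igfbp5 in rod-like cells gained a call in that set. Without the filter on low counts 6 pairs were called higher, among them Igf1 in microglia-like cells (adjusted p = 1.35e-05) and Igfbp2 in cone bipolar-like cells (adjusted p = 0.000949); over the alternatives of the Igf1 pair the adjusted p ranged up to 0.967. The other pathway pairs called higher moved from 3 to 9 without the filter, 6 in replicates 2 and 3 alone and 1 after thinning, and from 0 to 6 when a library was left out. Those called lower moved from 0 to 1 without the filter, 1 with a term for sex and 3 in replicates 2 and 3 alone, and from 0 to 2 when a library was left out. The cause of these moves was not tested. Comparisons between cell types under the threshold stayed at 4 without the filter, but Mueller-like minus RPE-like was then lost (adjusted p = 0.0823) and Mueller-like minus rod bipolar-like gained (adjusted p = 7.37e-08). Of 568 values of the 35 uncalled pairs, 37 changed sign with no call and 6 gained a call. Leaving out the Mueller-like cluster of low UMIs, and the levels without OIR replicate 3, were chosen after seeing the data. VEC-like cells, with 2 to 147 per library, limit what can be said of Igf1r, Igfbp3, Igfbp4 and Igfbp7 there.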
